A study of Mus musculus with 37 samples.

Results

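The mouse genes Nlrp4a, Nlrp4b, Nlrp4c, Nlrp4e, Nlrp9a, Nlrp9b, Nlrp9c and Nlrp14 were examined by name in the 4 RNA-seq tables of a study of the histone H3.3 chaperone complex made of Hira, Ubn1 and Cabin1. All 8 genes were present in every table, out of 29294 gene symbols listed in any of them. The tables covered 31 libraries of fully grown germinal vesicle (GV) oocytes and of 2-cell embryos, and 6 ATAC-seq peak lists were available for GV oocytes.

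The groups were as follows. ZH KO GV oocytes lacked Hira and came from Hira flox/flox females with Zp3-Cre, a recombinase driven by the promoter of the zona pellucida gene Zp3 and so active in growing oocytes. CabZ KO GV oocytes lacked Cabin1 and were made with the same Zp3-Cre from Cabin1 flox/flox females, and CabZ KO 2-cell embryos developed from such oocytes. The controls, ZH Het and CabZ Het, also carried Zp3-Cre and had 1 floxed allele, so that one copy of the gene was deleted in them as well. Both lines were on a C57BL/6 background. How the CabZ 2-cell embryos were obtained for sequencing, and the age of the females, were not given in the sources used here. The last table compared parthenogenetic 2-cell embryos from wild-type GV oocytes that had been injected with RNA for GFP or for Zscan4d, a gene of the 2-cell stage, and matured in culture (GFP and Zscan4 OE). There were 4 libraries per group, 3 libraries for Zscan4 OE and 3 per genotype for ATAC-seq. The methods describe pooled oocytes in each library, whereas the sample records speak of individual cells. No source says that libraries of a group came from separate females, so the p-values measure only the spread between these libraries, which may be technical.

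NLRP proteins are cytoplasmic proteins with a central NACHT domain that binds nucleotides and a C-terminal stretch of leucine-rich repeats. Some of them, such as NLRP3, assemble inflammasomes in immune cells, but in the mouse a separate group is transcribed mainly in the growing oocyte. Nlrp5 (also called Mater) and Nlrp2 belong to that group and are needed by the mother for early embryo development, and Nlrp4f is a part of the subcortical maternal complex beneath the oocyte membrane. Nlrp14 is likewise needed in the oocyte for early cleavage, whereas Nlrp9b is also known as a sensor of viral RNA in the intestine. Transcripts of this kind are stored in the GV oocyte and are cleared during the passage to the embryo.

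All 8 genes lie on chromosome 7 of the mouse build GRCm38, and the coordinates in the 4 tables equalled those of the GENCODE M21 annotation. Nlrp9c (chr7:26322473-26403700, minus strand), Nlrp4a (chr7:26435113-26476142, plus strand) and Nlrp9a (chr7:26535023-26575615, plus strand) are neighbours, with gaps of 31413 and 58881 bp between them. The other genes stand further apart on the plus strand, namely Nlrp4c (chr7:6045161-6105150), Nlrp4b (chr7:10687789-10730168), Nlrp9b (chr7:19991465-20073306), Nlrp4e (chr7:23301192-23362277) and Nlrp14 (chr7:107166990-107198102). Each gene has between 9 and 14 blocks of exon, which add up to 3400 to 5935 bp of a span of 31113 to 81842 bp.

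The members resemble each other, which bears on how their reads can be told apart. Of all 50-base stretches in its annotated transcripts, Nlrp4e shared 36.7% with transcripts of other genes, mostly with the pseudogene Gm16443 (30.8%). Nlrp4c shared 10.7%, of which the greater part was shared with Nlrp4e (7.0% of its stretches). The values were 7.79% for Nlrp9b, 6.07% for Nlrp9a, 2.63% for Nlrp4a and 2.61% for Nlrp9c. Nlrp4b and Nlrp14 shared none. How reads that fit several genes were divided is not stated, so values of Nlrp4e and Nlrp4c are uncertain. Gm16443 itself was listed at 0 to 20 reads per ZH library and was not a row of the other 3 tables. An intronic transcript on the same strand, Gm45379, lies inside Nlrp4b.

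The sequences just upstream of the start sites are shown for the members whose changes are compared most closely here. RefSeq promoter windows (GRCm38.p6, 250 bases before the start to 50 after it) matched 7 of the 8 genes with 9 windows. Nlrp14 had no entry. Motifs were searched on both strands, without regard to overlap between them. They were the E-box CANNTG, which is bound by the oocyte factor FIGLA among others, and the elements TAATTG and TAATTA, which are bound by the oocyte homeobox factor NOBOX. Capitals mark E-boxes and NOBOX elements. The 3 Nlrp4 windows are chr7:26435364-26435663 (Nlrp4a), chr7:10687543-10687842 (Nlrp4b) and chr7:6044911-6045210 (Nlrp4c), all on the plus strand.
Nlrp4a: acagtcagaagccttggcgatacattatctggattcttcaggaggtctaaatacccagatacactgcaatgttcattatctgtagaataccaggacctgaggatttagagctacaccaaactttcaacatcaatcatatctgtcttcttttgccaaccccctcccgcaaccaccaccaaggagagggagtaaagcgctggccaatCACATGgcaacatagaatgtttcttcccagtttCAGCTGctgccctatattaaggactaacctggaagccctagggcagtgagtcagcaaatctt
Nlrp4b: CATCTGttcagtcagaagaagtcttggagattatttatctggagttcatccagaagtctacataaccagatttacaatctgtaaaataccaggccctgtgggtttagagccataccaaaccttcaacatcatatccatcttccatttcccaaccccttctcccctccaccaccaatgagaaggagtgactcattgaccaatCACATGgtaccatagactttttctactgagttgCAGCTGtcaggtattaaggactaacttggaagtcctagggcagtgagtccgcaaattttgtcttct
Nlrp4c: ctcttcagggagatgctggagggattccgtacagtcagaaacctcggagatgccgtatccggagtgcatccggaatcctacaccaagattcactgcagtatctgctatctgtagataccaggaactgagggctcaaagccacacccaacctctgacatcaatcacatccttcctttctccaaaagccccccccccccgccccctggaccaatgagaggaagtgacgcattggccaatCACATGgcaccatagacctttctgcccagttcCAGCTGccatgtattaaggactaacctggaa
In each of these windows an E-box CACATG was followed by an E-box CAGCTG, 33 bases further on in Nlrp4a, 33 in Nlrp4b and 32 in Nlrp4c. With the first transcribed base as 1, CACATG began at base -45 in Nlrp4a, -49 in Nlrp4b and -13 in Nlrp4c. Another RefSeq window of Nlrp4a, at the further upstream start that the tables use (chr7:26434863-26435162), did not hold the pair. Some E-box was found in 72.3% of all 32851 windows and in those of 7 of 7 members. The ordered pair at 30 to 36 bases, which was searched for after these sequences had been seen, was found in 34 of 32851 windows (0.104%), the Nlrp4 ones included. Paralogues share sequence by descent, and a match of letters is a description, not a binding site.

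The second pair of windows is shown because Nlrp9a and Nlrp9c lie close together and resemble each other here, while their values in ZH oocytes differ. The windows are chr7:26534773-26535072 (Nlrp9a, plus strand) and chr7:26403651-26403950 (Nlrp9c, minus strand).
Nlrp9a: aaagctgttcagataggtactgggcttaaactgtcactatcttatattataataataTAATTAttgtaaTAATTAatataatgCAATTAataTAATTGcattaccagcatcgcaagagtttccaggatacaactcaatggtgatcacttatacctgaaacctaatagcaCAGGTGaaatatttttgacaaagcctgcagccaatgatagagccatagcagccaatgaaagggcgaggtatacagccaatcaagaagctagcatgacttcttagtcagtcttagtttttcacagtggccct
Nlrp9c: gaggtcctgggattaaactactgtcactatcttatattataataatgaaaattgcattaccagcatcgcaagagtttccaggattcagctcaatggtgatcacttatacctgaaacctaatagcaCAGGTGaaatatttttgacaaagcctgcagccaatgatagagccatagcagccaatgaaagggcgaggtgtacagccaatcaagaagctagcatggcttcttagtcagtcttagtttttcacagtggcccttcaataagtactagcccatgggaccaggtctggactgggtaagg
They share an unbroken run of 106 bases, which starts at base -118 in Nlrp9a and at base -162 in Nlrp9c, and 60.1% of the 12-base stretches of the Nlrp9a window recur in that of Nlrp9c. Both hold 1 E-box in that run. Nlrp9a has 4 NOBOX elements upstream of it and Nlrp9c has none. Whether these elements bear on the values in ZH oocytes was not tested. NOBOX elements occurred in 12.4% of all windows and in 2 of 7 members, the other being Nlrp9b. A TATA box (TATAAA) was found for Nlrp9b alone (13.6% of all windows), and a GC box (GGGCGG) for Nlrp4c alone (35.7% of all windows). GC content ranged from 36% in Nlrp9a to 53% in Nlrp4c, and the median of all windows was 52.7%.

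RNA-seq values are given as FPKM, that is, reads per kilobase of the whole gene span, introns included, scaled to library size. Reads on genes numbered between 5806426 and 21834225 per library. The CabZ KO 2-cell libraries had the fewest (5806426 to 6333374, against 7940667 to 8236084 in CabZ Het). Genes that averaged 1 FPKM or more in a table were tested with limma on log2(FPKM + 1), and the log2 fold changes are on this scale, which understates changes of low genes. Adjusted p-values are Benjamini-Hochberg values over all genes tested in a table, and a gene past an adjusted p of 0.05 with a fold change above 2 is called DE. Nlrp4c was below 1 FPKM in every table, so 7 of the 8 genes were tested in each. Oocyte markers such as Gdf9 and Bmp15 were present in every group, and the summed level of the 15 markers was at least 1179 FPKM in each library. Of 20 markers of ovarian somatic cells, 17 were rows of the ZH table, 10 of the CabZ GV table and 5 of the Zscan4 OE table, and none of these averaged 1 FPKM. Cabin1, the deleted gene, stood at 0.119 ± 0.0312 FPKM (SD, n = 4) in CabZ Het and 0.0242 ± 0.0167 FPKM in CabZ KO GV oocytes. A lower level of these genes was not limited to the deleted one. Cabin1 was also lower in ZH KO (0.0864 ± 0.0175 FPKM) than in ZH Het oocytes (0.286 ± 0.0410 FPKM). In CabZ KO 2-cell embryos Cabin1 had 0.134 ± 0.0497 FPKM, against 0.322 ± 0.0979 FPKM in CabZ Het, and Hira had 0.0435 ± 0.0196 FPKM, against 0.233 ± 0.0348 FPKM. In GV oocytes Hira had 2 to 14 reads in ZH Het and 0 to 13 in ZH KO libraries, too few to check the ZH labels.

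In GV oocytes of both control groups, Nlrp14 was by far the most abundant of the genes. To compare levels between genes, the reads were scaled to the reads of the library in the table (RPM, or reads-per-million) and divided by the kilobases of annotated exon, which assumes that they lie on exons. On this scale Nlrp14 stood at 1896 ± 249 (SD, n = 4) in ZH Het and 2126 ± 270.2 in CabZ Het oocytes. Nlrp9a came next with 399.8 ± 65.2 and 350.0 ± 29.8. Then came Nlrp9c (227 ± 28.4 and 260.5 ± 11.01), although in ZH Het its range reached that of Nlrp4a. Nlrp4a, Nlrp9b and Nlrp4b followed at 136 to 196, and their ranges overlapped in part, so that no order among these 3 is given. Nlrp4e stood at 47.9 ± 7.79 and 31.7 ± 5.35. Nlrp4c was lowest at 7.01 ± 1.57 and 3.31 ± 0.817. The 8 genes together took 9929 to 13438 RPM in ZH Het and 11848 to 13433 in CabZ Het oocytes. Nlrp14 alone made up 55.6 to 57.0% of that sum in ZH Het. In ZH KO oocytes the 8 genes took 8090 to 9219 RPM, and the share of Nlrp14 was 40.0 to 54.0%. In CabZ KO oocytes they took 8766 to 11666 RPM, also below every library of the controls, with a share of 51.5 to 58.2% for Nlrp14. That share was 55.4 to 65.8% in CabZ Het oocytes, so the ranges of the share overlapped.

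**Figure D1:**
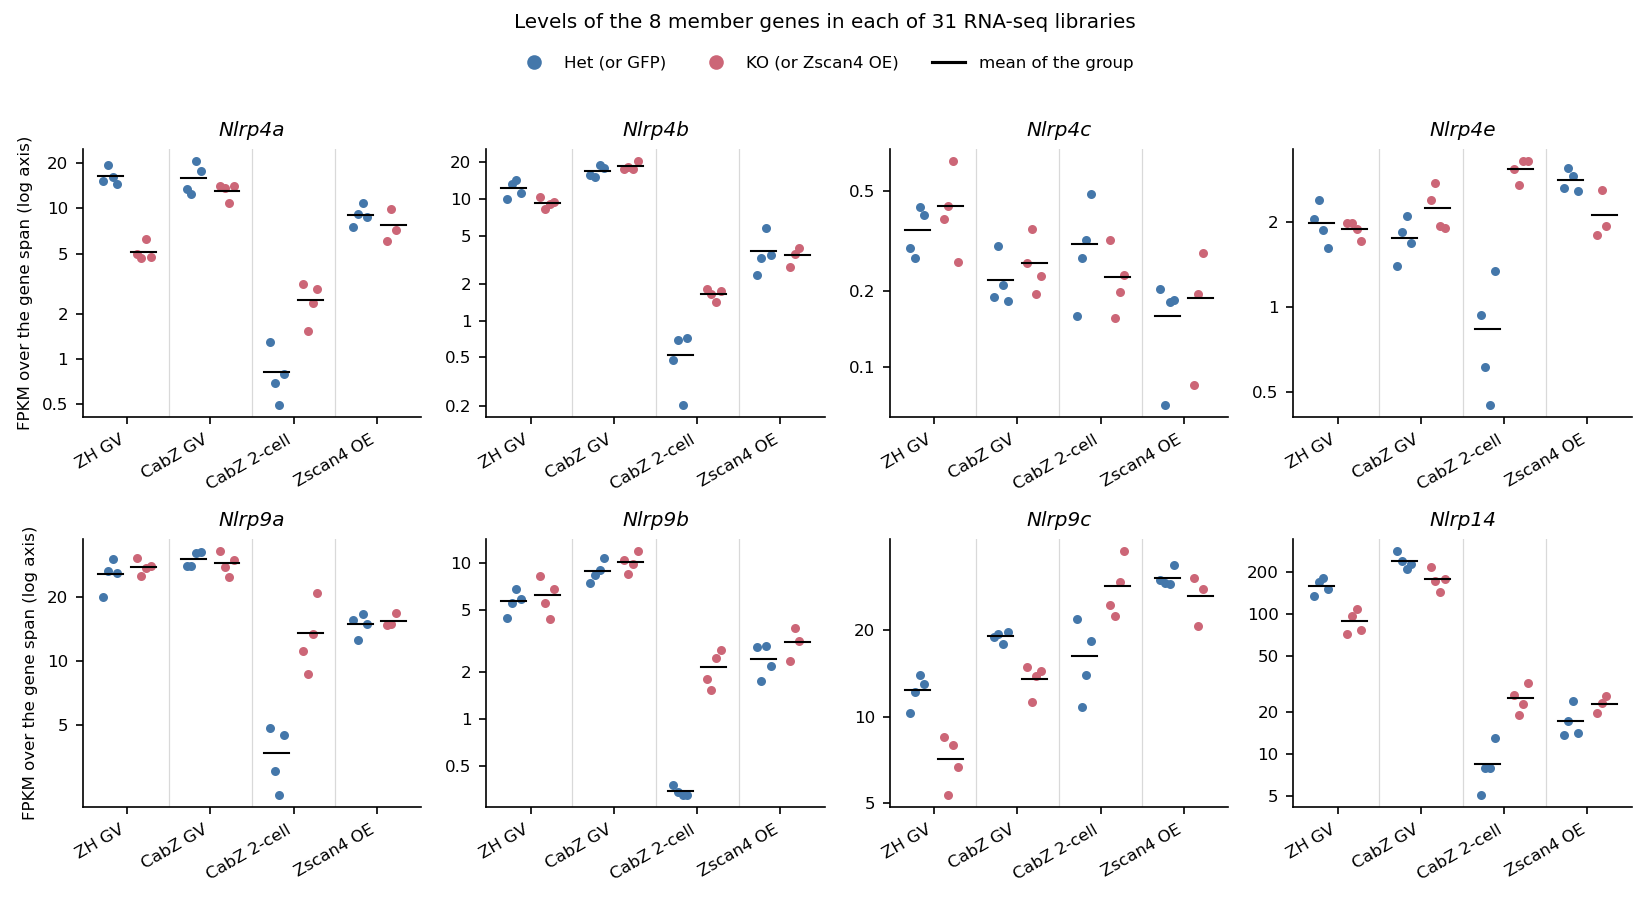
FPKM of each gene (log axis, a different range in each panel) in the 31 RNA-seq libraries, as points, with the mean of each group as a line. In ZH GV oocytes the KO points of Nlrp4a, Nlrp9c and Nlrp14 lie below every Het point, and in CabZ 2-cell embryos the KO points of every gene but Nlrp4c lie above every Het point. Tables were scaled separately.

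In ZH KO GV oocytes 3 of the 7 tested genes were lower than in ZH Het, namely Nlrp4a, Nlrp14 and Nlrp9c, and none rose past the threshold. Nlrp4a was reduced most. Its 4 ZH Het libraries held 15.1, 19.5, 16.1 and 14.5 FPKM, whereas the 4 ZH KO libraries held 4.96, 4.71, 6.23 and 4.74 FPKM. The lowest ZH Het value of Nlrp4a was thus far above the highest ZH KO value. The log2 fold change was -1.49 (standard error 0.14, limma adjusted p = 3.6e-05), and Nlrp4a was the one member called DE.

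For Nlrp14 the ZH Het values were 135, 172, 184 and 152 FPKM, and the ZH KO values were 72.5, 97.8, 109 and 76.8 FPKM. The groups of Nlrp14 did not overlap, although replicate 3 of ZH KO came close to the lowest control. Its log2 fold change was -0.86 (standard error 0.17, adjusted p = 0.0023), short of the 2-fold threshold.

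Nlrp9c had 10.3, 12.2, 13.98 and 13.0 FPKM in ZH Het and 8.49, 5.34, 7.95 and 6.69 FPKM in ZH KO oocytes. These groups did not overlap either. On the log2 scale Nlrp9c fell by 0.73 (standard error 0.16, adjusted p = 0.0040).

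The other Nlrp9 genes gave no such difference in ZH oocytes. Nlrp9a, the neighbour of Nlrp4a, had 19.9 to 29.9 FPKM in ZH Het and 25.1 to 30.3 FPKM in ZH KO libraries (log2 fold change 0.12, standard error 0.14, adjusted p = 0.50), so that the KO range lay mostly within the Het range. Nlrp9b had 5.70 ± 1.01 and 6.28 ± 1.69 FPKM (SD, n = 4 each). Their signs, and that of Nlrp4e (log2 fold change -0.04), turned with the scaling of the libraries. Nlrp4b had 12.2 ± 1.96 FPKM in ZH Het and 9.26 ± 0.891 FPKM in ZH KO oocytes (log2 fold change -0.35, adjusted p = 0.059), and its adjusted p was 0.039 without ZH Het replicate 1 and 0.020 with libraries scaled to equal medians. Nlrp4c was at 0.270 to 0.429 FPKM in ZH Het and 0.261 to 0.653 FPKM in ZH KO libraries, and its difference gave p = 0.54 in a two-sided exact permutation test, where 0.029 is the smallest p that 4 against 4 can give.

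Among all 5792 genes tested in the ZH table, 26.3% were lower and 25.6% higher at an adjusted p under 0.05, and 7.2% were DE and lower. Values of the groups did not overlap, with KO lower, in 23.2% of all genes. The median log2 fold change of the 7 tested members was -0.35 and that of all genes was -0.04, which became -0.19 when libraries were scaled to equal medians and 0.08 when they were scaled to the reads of the table. Nlrp4a, Nlrp14 and Nlrp9c stayed lower past the threshold in both scalings. Of the FPKM total, 74.2 to 74.7% lay on table genes in ZH Het and 66.0 to 68.2% in ZH KO libraries, and the 17 listed somatic markers in the table, none of which was at 0 in every library, summed to 0.549 to 0.840 FPKM in ZH Het and 2.02 to 3.13 FPKM in ZH KO libraries. The part of either in these differences was not tested. A lower value may mean less transcript per oocyte or fewer oocytes with the transcript in a pool, and these cannot be told apart.

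In CabZ KO GV oocytes Nlrp9c was lower than in CabZ Het, and the other 6 tested genes fell short of the threshold. Nlrp9c had 19.0, 19.4, 17.9 and 19.8 FPKM in CabZ Het and 14.9, 11.2, 13.8 and 14.4 FPKM in CabZ KO libraries, without overlap. Its log2 fold change was -0.46 (standard error 0.11, adjusted p = 0.019). Without CabZ Het replicate 1 or replicate 4 the adjusted p became 0.056 or 0.060, so that passing the threshold depended on single libraries. The log2 fold change was then -0.47 or -0.45. Among all 6339 genes tested in this table, 5.73% were lower and 8.2% were higher at the same threshold.

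Nlrp14 had 284, 240.0, 211 and 232 FPKM in CabZ Het and 218, 173, 145 and 179 FPKM in CabZ KO oocytes. The KO values were lower on average, but replicate 1 of CabZ KO lay above the lowest control (log2 fold change -0.44, standard error 0.14, adjusted p = 0.072). Without that library the adjusted p of Nlrp14 was 0.031. Nlrp4a, the gene reduced most in the ZH line, had 12.4 to 20.6 FPKM in CabZ Het and 10.9 to 14.1 FPKM in CabZ KO libraries, which overlapped (log2 fold change -0.25, adjusted p = 0.37). Nlrp4b, Nlrp4e, Nlrp9a and Nlrp9b had log2 fold changes between -0.07 and 0.23, with adjusted p-values from 0.26 to 0.75. Nlrp4c gave p = 0.43 (two-sided exact permutation test).

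The KO effects in the 2 lines were then compared with each other in one limma fit of both GV tables. The effect on Nlrp4a differed, being lower in the ZH line by 1.24 on the log2 scale (standard error 0.21, adjusted p = 0.0010). Nlrp4b differed by -0.48 (standard error 0.17, adjusted p = 0.044), and this call was lost in 11 of the 16 fits that left out 1 library (adjusted p 0.024 to 0.092). For the other 5 genes the difference did not pass. That of Nlrp14 was -0.42 (standard error 0.22, adjusted p = 0.16) and that of Nlrp9c was -0.27 (standard error 0.19, adjusted p = 0.29). Of all 5332 genes in this test, 27.8% passed. The 2 tables were scaled to unlike totals. CabZ values were scaled to the table genes, and ZH values to a total of which table genes held a smaller share in KO than in Het. With ZH libraries scaled to table reads, the ZH log2 fold change was -0.22 for Nlrp4b and -1.40 for Nlrp4a. The difference between the lines was not tested on that scale.

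**Figure D2:**
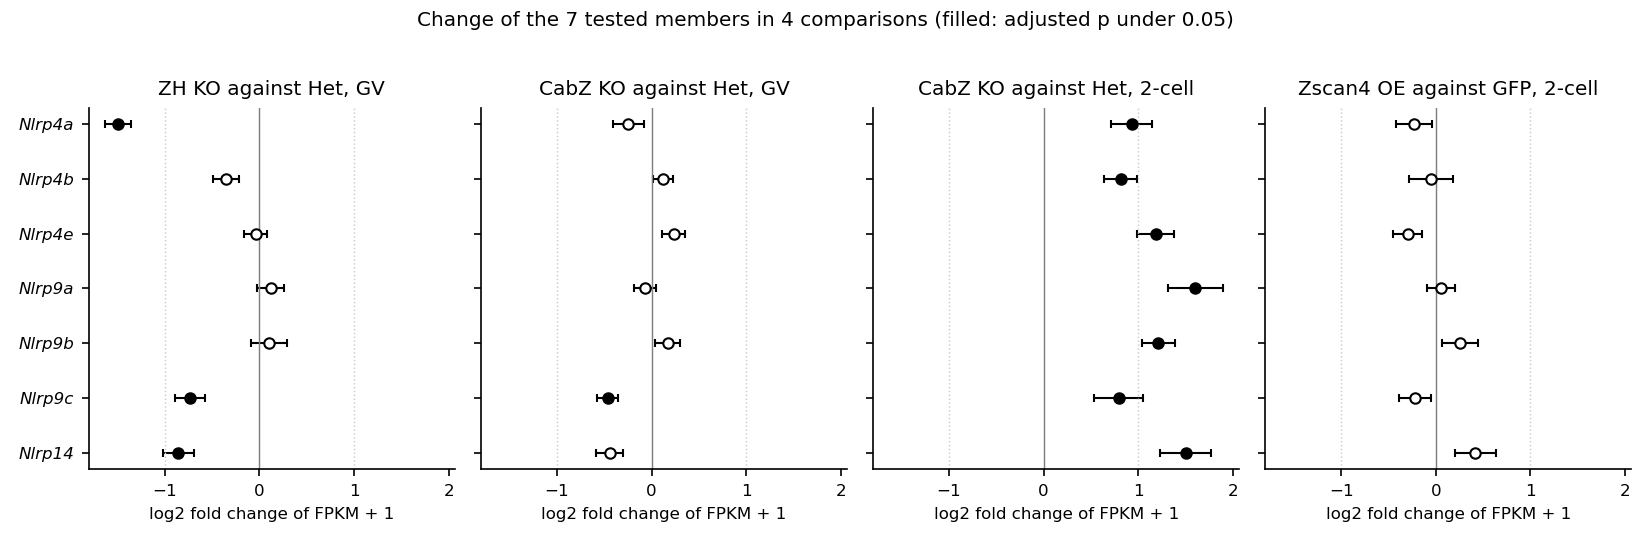
Log2 fold change on the log2(FPKM + 1) scale (points) with its standard error (bars) of the 7 tested genes in the 4 comparisons. Filled points passed an adjusted p of 0.05, and dotted lines mark a 2-fold change. Filled points lie left of 0 in the GV panels and right of 0 in CabZ 2-cell embryos, and the Zscan4 OE panel has none.

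CabZ KO 2-cell embryos held more Nlrp14, Nlrp9a, Nlrp9b, Nlrp9c, Nlrp4a, Nlrp4b and Nlrp4e than CabZ Het embryos. Nlrp14 had 5.04, 7.92, 7.82 and 13.0 FPKM in the 4 CabZ Het libraries and 26.2, 19.0, 22.6 and 32.1 FPKM in the 4 CabZ KO libraries. The highest control thus stayed below the lowest CabZ KO value, and Nlrp14 was higher by 1.499 on the log2 scale (standard error 0.27, adjusted p = 0.0017).

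Nlrp9a had 4.81, 3.01, 2.33 and 4.46 FPKM in CabZ Het and 11.1, 8.64, 13.3 and 20.8 FPKM in CabZ KO embryos. Replicate 4 of CabZ KO was the highest, and every CabZ KO library exceeded every control (log2 fold change 1.60, standard error 0.29, adjusted p = 0.0015). Nlrp9c, which was the most abundant member at this stage per kilobase of exon, had 21.9, 10.8, 14.03 and 18.4 FPKM in CabZ Het and 24.5, 22.5, 29.5 and 37.7 FPKM in CabZ KO embryos. The gap between the groups of Nlrp9c was narrow (log2 fold change 0.79, standard error 0.25, adjusted p = 0.024). Leaving out CabZ Het replicate 2 or 3, or CabZ KO replicate 3 or 4, raised its adjusted p to between 0.055 and 0.068.

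Nlrp9b was the member with the steepest ratio of FPKM at this stage. It stood at 0.379, 0.344, 0.329 and 0.328 FPKM in CabZ Het and at 1.81, 1.55, 2.48 and 2.80 FPKM in CabZ KO embryos, which rest on 215 to 247 and on 795 to 1329 reads. The mean of CabZ KO was 6.25 times that of CabZ Het, although the log2 fold change on the scale with 1 added was 1.21 (standard error 0.18, adjusted p = 6.0e-04). Nlrp4e had 0.835 ± 0.393 FPKM (SD, n = 4) in CabZ Het and 3.10 ± 0.271 FPKM in CabZ KO embryos (log2 fold change 1.18, standard error 0.19, adjusted p = 9.4e-04).

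Nlrp4a had 0.822 ± 0.346 FPKM in CabZ Het and 2.48 ± 0.711 FPKM in CabZ KO embryos (SD, n = 4 each; log2 fold change 0.93, standard error 0.22, adjusted p = 0.0056). For Nlrp4b the means were 0.526 ± 0.242 and 1.66 ± 0.174 FPKM (log2 fold change 0.81, standard error 0.18, adjusted p = 0.0039). The lowest CabZ KO value of either gene lay above the highest control. Nlrp4c went the other way in its means, with 0.159 to 0.486 FPKM in CabZ Het and 0.157 to 0.320 FPKM in CabZ KO libraries, and its groups overlapped (p = 0.37, two-sided exact permutation test).

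Nlrp14, Nlrp9a, Nlrp9b and Nlrp4e were called DE, and all 7 tested genes passed the adjusted p with groups that did not overlap. Among all 7798 genes tested at this stage, 25.2% were higher and 30.9% lower at an adjusted p under 0.05, 16.9% were DE and higher, and 22.9% had groups that did not overlap with CabZ KO higher. The number of members that passed is no support by itself, because Nlrp9b, Nlrp4e, Nlrp4a and Nlrp4b were below 1 FPKM in CabZ Het and entered the test only through the CabZ KO libraries. Nlrp14, Nlrp9a and Nlrp9c were above 1 FPKM in both groups. The median log2 fold change of all genes was -0.11, and it was 0.13 when libraries were scaled to equal medians. With that scaling all 7 tested genes were called DE. With a pseudocount of 0.1 in place of 1, all of them but Nlrp9c were DE, and the log2 fold changes of the low genes were 2.31 for Nlrp9b, 1.59 for Nlrp4b and 1.51 for Nlrp4a.

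In CabZ KO embryos the 8 genes together took 3200 to 5544 RPM, against 1387 to 2301 in CabZ Het embryos. Oocyte markers moved with them. Of 12 oocyte markers tested at this stage, 10 were higher in CabZ KO and none was lower, with Mos rising from 1.65 to 17.3 FPKM (log2 fold change 2.92, adjusted p = 0.0016) and Gdf9, an oocyte growth factor, from 11.2 to 48.3 FPKM (log2 fold change 1.89, adjusted p = 0.0016). Of all genes tested, 25.2% were higher and 30.9% lower. The summed level of all 15 markers overlapped between the groups (1676 to 2048 FPKM in CabZ Het, 1179 to 2643 FPKM in CabZ KO). Most of that sum was Dppa3, which did not pass (limma adjusted p = 0.17). Dppa3 had 1634 ± 187 FPKM (SD) in CabZ Het and 1231 ± 587 FPKM in CabZ KO, so the sum says little of the other markers. Of the 20 somatic markers, 15 were in this table and none of these was at 0 in every library, and they summed to 2.51 to 4.55 FPKM in CabZ Het and 1.07 to 2.64 FPKM in CabZ KO. One of them was tested, Amhr2, and it fell from 1.87 to 0.493 FPKM (adjusted p = 0.0044). Amhr2 entered the test only through the CabZ Het libraries, so its fall is no support by itself. The part of these in the members' values was not tested.

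**Figure D3:**
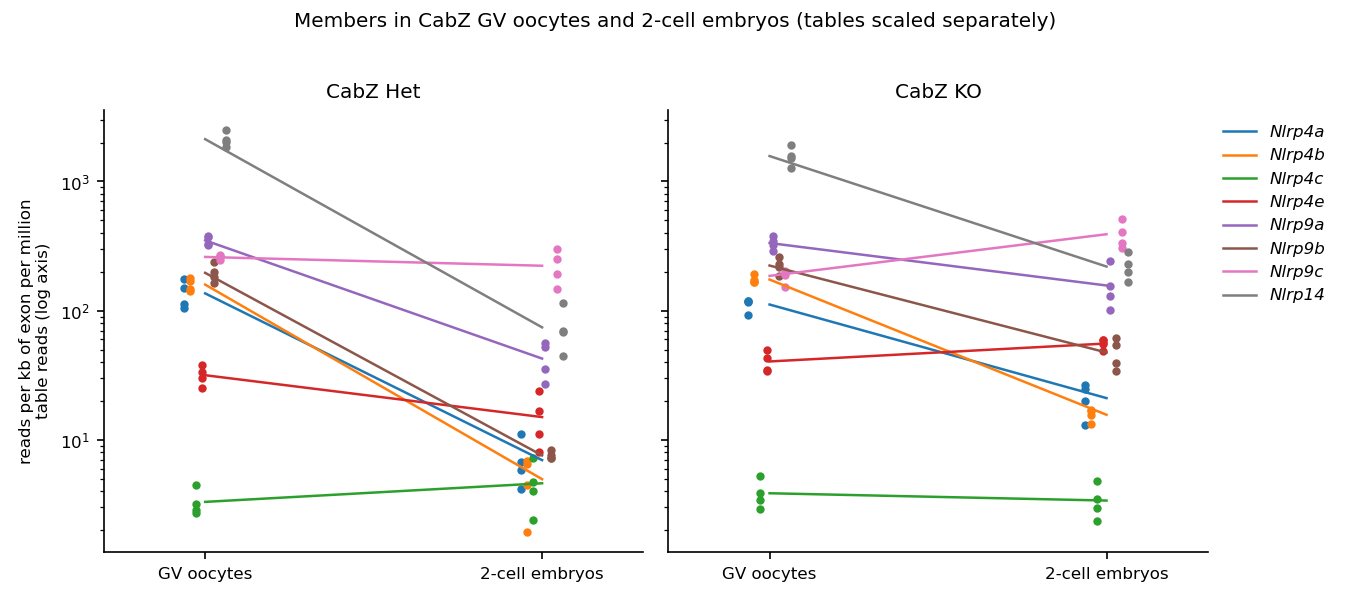
RPM per kilobase of exon, scaled to the reads of each table (log axis), for the 8 genes in CabZ Het (left) and CabZ KO (right), with each library as a point and group means joined by lines. In CabZ Het the line of Nlrp14 goes from 2126 in GV oocytes to 74.3 in 2-cell embryos, and in CabZ KO from 1573 to 220. The 2 stages come from tables that were scaled separately.

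Set side by side, the levels of the GV and 2-cell tables differed strongly for most of the genes. The tables were scaled separately, so no test is given across them. In CabZ Het, the ratio of the mean level in GV oocytes to that in 2-cell embryos was 32.1 for Nlrp4b, 28.6 for Nlrp14, 25.9 for Nlrp9b and 19.5 for Nlrp4a. It was smaller for Nlrp9a (8.22) and Nlrp4e (2.11), and near 1 for Nlrp9c (1.17), which therefore replaced Nlrp14 as the highest of the 8 genes. In CabZ KO the same ratios were 11.1 for Nlrp4b, 7.16 for Nlrp14, 4.71 for Nlrp9b, 5.30 for Nlrp4a, 2.13 for Nlrp9a, 0.726 for Nlrp4e and 0.476 for Nlrp9c. Each of these 7 ratios was smaller than in CabZ Het. That of Nlrp4c went the other way, from 0.718 in CabZ Het to 1.14 in CabZ KO.

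On the scale per kilobase of exon, the order in CabZ Het 2-cell embryos was Nlrp9c (223 ± 66.4, SD, n = 4), Nlrp14 (74.3 ± 29.1), Nlrp9a (42.6 ± 13.7) and Nlrp4e (15.0 ± 7.07). The ranges of Nlrp14 and Nlrp9a overlapped. Nlrp9b, Nlrp4a, Nlrp4b and Nlrp4c were at 4.61 to 7.59 with overlapping ranges, and the range of Nlrp4e overlapped that of Nlrp9b. In CabZ KO 2-cell embryos the order of the first 5 was Nlrp9c (391 ± 93.3), Nlrp14 (220 ± 49.1), Nlrp9a (157 ± 61.0), Nlrp4e (55.7 ± 4.87) and Nlrp9b (47.4 ± 12.7), and neighbouring ranges overlapped between Nlrp14 and Nlrp9a and between Nlrp4e and Nlrp9b. Nlrp4a (21.1 ± 6.02), Nlrp4b (15.6 ± 1.64) and Nlrp4c (3.39 ± 1.03) came last.

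A test of the difference between the CabZ KO effects at the 2 stages was added after the data had been seen. In one limma fit of both CabZ tables, the effect in 2-cell embryos was higher than that in GV oocytes by 1.94 on the log2 scale for Nlrp14 (standard error 0.31, adjusted p = 1.1e-04), by 1.67 for Nlrp9a (standard error 0.31, adjusted p = 3.7e-04) and by 1.26 for Nlrp9c (standard error 0.28, adjusted p = 0.0012). Nlrp4a (1.18), Nlrp9b (1.04), Nlrp4e (0.95) and Nlrp4b (0.69) also passed, with adjusted p-values up to 0.0064. Of all 4994 genes in this test 55.8% passed, so a difference between the stages was common, and the 4 genes below 1 FPKM in CabZ Het embryos entered it only through the CabZ KO libraries.

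Between the libraries labelled Zscan4 OE and GFP no member differed past the threshold. The level of the injected gene did not set the labels apart at this stage. The study itself had checked overexpression earlier, in the injected oocytes. It reported more Zscan4 there than in uninjected oocytes by qRT-PCR, immunofluorescence and western blot. Zscan4d had 69.4 to 149 FPKM in the 4 GFP libraries and 70.3 to 84.3 FPKM in the 3 libraries labelled Zscan4 OE, and replicate B of the latter had 7.93 FPKM of Zscan4c, against 65.4 to 184 FPKM in all other libraries of the table. The member nearest to the threshold was Nlrp4e, with 2.65, 3.12, 2.92 and 2.58 FPKM in GFP and 1.80, 2.61 and 1.95 FPKM in embryos labelled Zscan4 OE (log2 fold change -0.30, standard error 0.15, limma adjusted p = 0.31). Nlrp14 had 13.5, 17.1, 24.0 and 14.04 FPKM in GFP and 19.5, 23.0 and 25.9 FPKM in embryos labelled Zscan4 OE (log2 fold change 0.42, standard error 0.22, adjusted p = 0.32). For both genes the groups overlapped.

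Nlrp4a, Nlrp4b, Nlrp9a, Nlrp9b and Nlrp9c had log2 fold changes between -0.23 and 0.26 with adjusted p-values of 0.47 to 0.92. Of the 7 tested genes, 0 had an unadjusted p under 0.05. Nlrp4c gave p = 0.69 (two-sided exact permutation test, where 0.057 is the smallest p that 4 against 3 can give). Few genes passed at all in this table, 0.0932% of 4293 being higher and 1.7% lower at an adjusted p under 0.05. The 73 lower genes became 18, 19, 32 and 48 without GFP replicate A, B, C and D, and 39 and 28 without Zscan4 OE replicate A and B. The 8 genes took 6442 to 7196 RPM in GFP and 5940 to 6774 in embryos labelled Zscan4 OE. Nlrp9c was the most abundant here too, at 625 ± 44.1 (SD, n = 4) per kilobase of exon in GFP embryos, followed by Nlrp9a (259 ± 28.6) and Nlrp14 (225 ± 60.1), whose ranges overlapped.

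Of the related oocyte genes, Nlrp2, Nlrp5, Nlrp4f and Nlrp4g were in the tables. The lists that follow were drawn up with earlier results of these data known. In ZH KO oocytes 3 of these 4 were lower, 0 were higher, and their median log2 fold change was -0.83. Of all genes tested there, 26.3% were lower and 25.6% higher. Nlrp4f fell from 39.3 ± 7.80 to 14.7 ± 2.78 FPKM (SD, n = 4 each; log2 fold change -1.35, adjusted p = 2.4e-04), Nlrp4g from 37.3 to 19.5 FPKM (log2 fold change -0.94, adjusted p = 0.0043) and Nlrp2 from 7.09 to 4.07 FPKM (log2 fold change -0.71, adjusted p = 0.024). Nlrp5 had 25.1 ± 3.47 FPKM in ZH Het and 23.2 ± 6.14 FPKM in ZH KO oocytes (adjusted p = 0.57).

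None of the 4 passed in CabZ KO GV oocytes, where log2 fold changes were -0.22 for Nlrp2, -0.14 for Nlrp5, -0.06 for Nlrp4f and 0.01 for Nlrp4g (limma, adjusted p of 0.30 to 0.97, and 0 with an unadjusted p under 0.05). In CabZ KO 2-cell embryos 3 of 3 tested were higher, as were 25.2% of all genes tested. Nlrp4f had 2.47 ± 0.880 FPKM in CabZ Het and 11.3 ± 2.38 FPKM in CabZ KO (log2 fold change 1.85, adjusted p = 3.4e-04), Nlrp4g 6.47 and 19.9 FPKM (log2 fold change 1.54, adjusted p = 0.0016) and Nlrp5 1.33 and 2.91 FPKM (log2 fold change 0.76, adjusted p = 0.014). Nlrp2 was below 1 FPKM there. With limma 0 of 3 passed between GFP and Zscan4 OE (1 at an unadjusted p under 0.05), Nlrp5 having 2.63 ± 0.733 FPKM in GFP (n = 4) and 5.32 ± 1.91 FPKM in embryos labelled Zscan4 OE (n = 3; adjusted p = 0.13) and Nlrp4f 22.3 and 20.8 FPKM (adjusted p = 0.84).

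Genes of the subcortical maternal complex, a list that shares Nlrp2, Nlrp5 and Nlrp4f with the one above, were lower in 6 of 8 in ZH KO oocytes (median log2 fold change -1.06), and 6 of 7 were higher in CabZ KO 2-cell embryos (median 0.89). Of all genes tested, 26.3% were lower and 25.6% higher in ZH KO oocytes, and 25.2% were higher in CabZ KO 2-cell embryos. With limma 0 of 8 passed in the CabZ GV table (2 at an unadjusted p under 0.05) and 0 of 6 in the Zscan4 OE comparison (2 at an unadjusted p under 0.05). Zbed3 fell most in the ZH line, from 259 to 61.0 FPKM (log2 fold change -2.10, adjusted p = 6.2e-05). Ooep rose most in CabZ KO 2-cell embryos, from 33.9 to 228 FPKM (log2 fold change 2.64, adjusted p = 9.2e-04). Oocyte markers in ZH KO oocytes went both ways, with 6 of 13 lower and 2 higher, led by Bmp15 (391 to 89.6 FPKM, log2 fold change -2.16, adjusted p = 1.5e-04) and by Figla, the factor that binds E-boxes of zona genes (6.65 to 14.3 FPKM, log2 fold change 1.01, adjusted p = 5.6e-04). In CabZ GV oocytes 0 of 13 oocyte markers passed with limma (2 at an unadjusted p under 0.05), and in the Zscan4 OE comparison 0 of 12 (3 at an unadjusted p under 0.05).

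The NLR and inflammasome genes of immune cells were mostly low or were not rows of a table. Of 27 listed, 21 were rows of the ZH table, 13 of the CabZ GV, 19 of the CabZ 2-cell and 7 of the Zscan4 OE table. Of these rows, 2 averaged 1 FPKM or more in the ZH table, 2 in each CabZ table and 0 in the Zscan4 OE one. Those past the threshold were Pycard in ZH (0.00363 to 2.10 FPKM, adjusted p = 2.0e-05), Nlrc4 in CabZ GV oocytes (1.28 to 0.767 FPKM, adjusted p = 0.024) and Naip1 in CabZ 2-cell embryos (0.200 to 2.298 FPKM, adjusted p = 3.2e-04). Each of these genes was below 1 FPKM in 1 group and entered the test only through the other group. The list of 2-cell genes was higher in 8 of 8 tested in ZH KO and 5 of 7 in CabZ KO GV oocytes, and 0 tested members were higher in either. Of all genes tested, 25.6% and 8.2% were higher there. Some of the 8 were below 1 FPKM in ZH Het, down to 0.0334 FPKM, and entered the test only through the ZH KO libraries. Their count is therefore no support by itself. In CabZ KO 2-cell embryos 8 of 19 were higher and 1 lower, where 25.2% of all genes tested were higher and 30.9% lower. Between GFP and Zscan4 OE 0 of 19 passed with limma (10 at an unadjusted p under 0.05).

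The members varied together across the libraries. With each library set against the control mean of its own table on the log2(FPKM + 1) scale, the Pearson correlation of each tested gene with the mean of the other 6 lay between 0.78 (Nlrp4a) and 0.88 (Nlrp4b) over 31 libraries. The libraries share the same group differences, so this describes those differences and has no p. Among 3290 genes tested in all 4 tables, the 5 whose pattern was most like the mean of the members were Btf3l4 (0.964), Orc5 (0.963), E330011O21Rik (0.957), Nlrp4f (0.955) and Lyplal1 (0.954). All 5 were lower in ZH KO oocytes and higher in CabZ KO 2-cell embryos, as the median member was. They were picked for likeness to the members over these same libraries, so the shared directions are no separate support. Orc5, a subunit of the origin recognition complex, went from 14.9 to 9.79 FPKM in the first case and from 5.82 to 15.6 FPKM in the second.

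ATAC-seq, which cuts open chromatin with the Tn5 transposase, gave few peaks at these genes in CabZ GV oocytes. Across the 6 peak lists the 8 genes, with 1000 bp to either side, held 25 peaks, of which 13 were at Nlrp14, 6 at Nlrp4a, 3 at Nlrp4b, 2 at Nlrp9c and 1 at Nlrp4c. Nlrp4e, Nlrp9a and Nlrp9b had none in any list. Fold enrichment at these summits was 2.91 to 6.09, the medians of the 6 whole lists were 3.52 to 4.50, and 1.29 to 5.26% of the peaks in a list exceeded the highest peak at a member. The lists held 43399, 67074 and 111327 peaks in CabZ Het and 46070, 19160 and 29600 peaks in CabZ KO, and the number of reads behind them is unknown.

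At the start site (500 bp to either side), Nlrp14 had a peak in CabZ Het replicate B, with its summit at -94 bp, and in CabZ Het replicate C, with its summit at -225 bp. Nlrp4b had one in CabZ Het replicate C, with its summit 23 bp into the gene. No member had a peak at its start in CabZ Het replicate A or in the 3 CabZ KO lists. Over all 19032 genes of the table, the share with a peak at the start was 11.01, 22.05 and 39.35% in CabZ Het and 16.7, 5.32 and 6.87% in CabZ KO. It was thus highest in the 2 lists with the most peaks, which were also the 2 with a peak at a member. With 1000 bp to either side, CabZ Het replicate A had one as well, at Nlrp4b, and the CabZ KO lists again had none. With 3 libraries against 3 an exact permutation test cannot go under 0.1, and none was made. The start of Nlrp9b in the tables lies upstream of its RefSeq window (chr7:20007773-20008072).

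Inside the genes, a peak of Nlrp14 recurred. It lay in an intron (chr7:107180440-107181006 in CabZ KO replicate B), with its summit 13919 to 13949 bp from the start site in CabZ Het replicate C and in all 3 CabZ KO lists, with a fold enrichment of 4.11 in CabZ Het replicate C, against 6.09 in replicate A of CabZ KO, 5.85 in its replicate B and 4.43 in its replicate C. At Nlrp4a, the summits lay between 8242 and 14637 bp from the start site in all 3 CabZ Het lists and in CabZ KO replicates B and C. Peaks at Nlrp4b, with summits 23, 981 and 1192 bp from the start site, were in the CabZ Het lists alone.

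**Figure D4:**
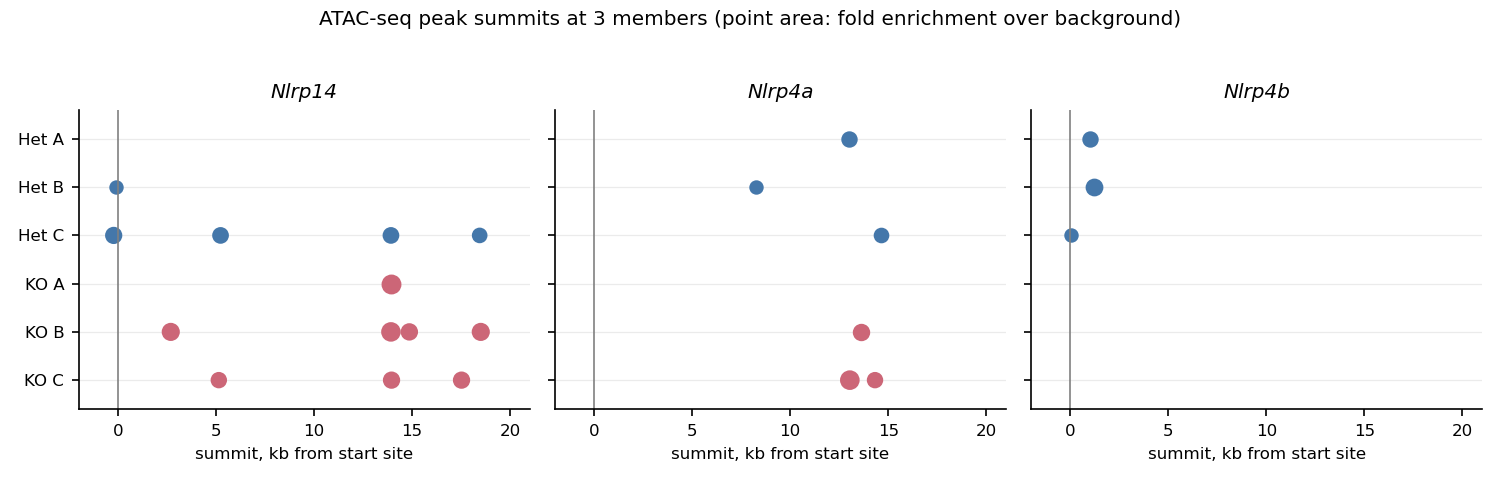
Summits of ATAC-seq peaks (points, area in proportion to fold enrichment) at Nlrp14, Nlrp4a and Nlrp4b by distance from the start site in kb, with 1 line for each CabZ Het (blue) and CabZ KO (red) peak list. The 4 summits of Nlrp14 near 14 kb fall in CabZ Het C and in CabZ KO A, B and C, and the start site peaks fall in CabZ Het B and C.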

How the data were processed

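RNA-seq libraries were made with a Smart-seq2 kit. The authors trimmed the reads with TrimGalore and aligned them with STAR 2.5.3a to GRCm38, and Partek Flow gave values per gene. The ZH and Zscan4 OE tables were deposited as FPKM, over the gene span and with 0.01 or 0.001 added by the authors, as the values show. The CabZ tables were deposited as score values, whose unit the authors do not state. As read from the values, the reads had been divided by the span 2 times, every library scaled to 1 total and 0.01 added. FPKM were restored on this reading, and all CabZ values given here rest on it. MACS2, run by the authors per library after Bowtie2 2.3, gave the deposited fold enrichment ratio, −log10 p, −log10 q and score of each ATAC-seq peak.

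The table minimum was subtracted. Reads were recovered from the steps between values, and 80.5 to 88.1% of low values then lay within 0.05 of a whole number. No 2 replicates of a group were alike within sampling noise. In each table, genes that averaged 1 FPKM or more were fitted with limma 3.58.1 (R 4.3.3) on log2(FPKM + 1), without trend or block, and DE was set at the thresholds that the study used (adjusted p of 0.05, 2-fold). Other steps used Python 3.11.15, pandas 2.3.3, numpy 2.4.6, scipy 1.17.1 and matplotlib 3.10.9. The scripts were tested on simulated data.

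The study's methods name RefSeq genes, whereas the gene spans in the tables equalled GENCODE M21. The members and the lists were chosen with earlier results of these data known. All 8 members were named, with at most 2 rising and 2 falling genes of each list, Nlrp2, Nlrp5 and Nlrp4f wherever tested, and the 5 genes most like the members. Nlrp4g, Dppa3, Gm16443, Gm45379, Zscan4c and Zscan4d were named after their values were seen, and the test of the KO effect between stages was added then. Alternatives were another pseudocount, filter, scaling or trend, the replicate block, the table values as they are, each library left out, a stricter peak threshold and a wider window.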

Additional observations from a re-analysis of the deposited data

Results flagged for a closer look

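In 3 of the 56 groups of 4 libraries, the lowest or highest library stood apart from the others by Dixon's test, and chance marks about 1 group in 20. Nlrp4a stood at 10.9 FPKM in CabZ KO GV replicate 3, below the other 3 libraries, and at 6.23 FPKM in ZH KO GV replicate 3, above the other 3. Nlrp4c stood at 0.0708 FPKM in GFP 2-cell replicate B, below the other 3. The effect of KO differed between the lines in GV oocytes for Nlrp4a, by -1.24 (ZH minus CabZ, log2 scale; limma adjusted p = 0.0010), and for Nlrp4b, by -0.48 (adjusted p = 0.044). For Nlrp4b the limma adjusted p rose to as much as 0.092 when 1 library was left out. The tables of the lines were scaled to unlike totals, and the difference was not tested with ZH scaled to table reads. Of all 5332 genes in that test, 27.8% passed. The CabZ KO effect differed between 2-cell embryos and GV oocytes, in a test added after the data had been seen, by 1.94 for Nlrp14, 1.18 for Nlrp4a, 0.69 for Nlrp4b, 0.95 for Nlrp4e, 1.67 for Nlrp9a, 1.04 for Nlrp9b and 1.26 for Nlrp9c (limma adjusted p from 1.1e-04 to 0.0064). Of all 4994 genes in this test, 55.8% passed. Nlrp4a, Nlrp4b, Nlrp4e and Nlrp9b were below 1 FPKM in CabZ Het embryos and entered it only through the CabZ KO libraries.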

How the results depend on the processing

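Nlrp4a, Nlrp14 and Nlrp9c in ZH GV oocytes, and Nlrp14, Nlrp9a, Nlrp9b, Nlrp4e, Nlrp4a and Nlrp4b in CabZ 2-cell embryos, passed an adjusted p of 0.05 in the same direction under every alternative that tested them. In the 2-cell embryos Nlrp9b, Nlrp4e, Nlrp4a and Nlrp4b were below 1 FPKM in CabZ Het and were tested only through the CabZ KO libraries. Their passing is thus no support by itself, and Nlrp4b was not tested without CabZ KO replicate 1 or 4. With equal medians, 2 members were DE in ZH oocytes, 4 passed the adjusted p there (Nlrp4b in addition), and 7 were DE in CabZ 2-cell embryos, and the ZH log2 fold changes of Nlrp9a and Nlrp9b became -0.029 and -0.046. Scaled to the reads of the table, that of Nlrp4e became 0.069, and with equal medians that of Nlrp4b in Zscan4 OE became 0.047. Equal medians also moved the share of DE genes that were higher from 59.2 to 42.9% in ZH (72.0% scaled to table reads) and from 45.3 to 60.9% in CabZ 2-cell embryos. DE genes lower in ZH numbered 417, against 796 with a pseudocount of 0.1, 627 with equal medians and 266 with a filter at 5 FPKM. With a pseudocount of 0.1, 6 members were DE in CabZ 2-cell embryos, against 4. DE genes higher there numbered 1320, against 641 with that filter. That filter left 3 members tested in CabZ 2-cell embryos, with 2 DE, 3 past the adjusted p and 3 with a difference between stages. With the CabZ values as deposited, 0 members passed in GV oocytes (1 was tested, at log2 fold change -0.38) and no member reached the filter in 2-cell embryos. Without any filter, Nlrp9c in CabZ 2-cell embryos had an adjusted p of 0.054. A pseudocount of 0.1 left 1 difference between the lines. No start site peak (0) reached −log10 q of 5, against 3 in the lists.

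Leaving out 1 library gave 0 to 2 members past the adjusted p in CabZ GV oocytes (0 without CabZ Het replicate 1 or 4, 2 without CabZ KO replicate 1) and 1 to 2 differences between the lines. The log2 fold changes then ranged from -0.10 to 0.0255 for Nlrp4e and from -0.027 to 0.23 for Nlrp9b in ZH, from -0.19 to 0.14 for Nlrp4b and from -0.023 to 0.11 for Nlrp9a in Zscan4 OE, and the difference between the lines for Nlrp9b from -0.20 to 0.064. The cause of these changes was not tested. Same-numbered libraries of Het and KO did not deviate together throughout (correlations of -0.41 to 0.40 in ZH). Of the libraries, 2 of 8 in ZH, 1 of 8 in CabZ GV, 2 of 8 in CabZ 2-cell and 2 of 6 in Zscan4 OE correlated best with their own number. With so few libraries this check cannot show whether same-numbered ones were collected together, and the main fits did not pair them. With the replicate block, 1 difference between the lines passed, and in CabZ GV oocytes Nlrp9c had an adjusted p of 0.055 and Nlrp14 of 0.044. In the Zscan4 OE table genes lower at an adjusted p under 0.05 numbered 73, against 2 with the block, in which GFP replicate D had no partner (48 without that library and with no block), 18 to 108 without 1 library, 46 at a pseudocount of 0.1 and 6 with no filter. Reads limit Nlrp4c, with 59 to 517 per library.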
